A study of Homo sapiens with 3 samples.

Results

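The enzymes that make and salvage the building blocks of DNA were examined in PANC-1, an established human pancreatic cancer cell line, after exposure to inhibitors of protein phosphatase 2A (PP2A). The set held 8 genes, RRM1, RRM2, TYMS, TK1, DUT, DCTD, DCK and DTYMK, chosen by name for their role in deoxynucleotide supply, out of 19699 genes that the arrays could name. All 8 were matched, through the transcript accession on each probe, by 9 probes in all. DUT had 2 probes and each of the others had 1. The study compared 3 groups, each with 1 array and no replicate: untreated control cells, cells exposed to cantharidin (CAN) at 20 µM for 24 h, and cells exposed to okadaic acid (OA), for which the labels give the same dose and time. Cantharidin is the active agent of blister beetles and okadaic acid a marine toxin, and both inhibit PP2A. The cells of all groups were the same line in the same medium, and no transgene or other agent was listed. The study analysed these array data, for which it cites an earlier publication, to follow the expression of genes linked to angiogenesis under both agents.

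Cells make deoxynucleotides chiefly by reduction of ribonucleotides. Ribonucleotide reductase, built from the large subunit RRM1 and the small subunit RRM2, carries out that step and sets the rate of supply. Thymidylate needs more steps. DUT, the dUTPase, cleaves dUTP to dUMP and so keeps uracil out of DNA, DCTD deaminates dCMP to dUMP, and TYMS, thymidylate synthase, methylates dUMP to dTMP with a folate cofactor. DTYMK then phosphorylates dTMP. Salvage runs beside this route, with TK1 phosphorylating thymidine and DCK phosphorylating deoxycytidine and purine deoxynucleosides. In most cell types the transcripts of RRM2, TYMS and TK1 are made mainly around S phase, under the control of E2F factors and of complexes that bind promoters at the CCAAT box and at the cell cycle genes homology region (CHR). TYMS is the target of fluoropyrimidines, RRM1 of gemcitabine diphosphate, and DCK activates gemcitabine, a standard drug in pancreatic cancer.

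Because the transcripts of this set are known for shared promoter elements, the upstream sequence of the members whose levels are described below is shown first. Windows of 250 bases before each annotated start were taken from RefSeq (GRCh38.p14), which lists 14 starts for the 8 genes. The letters searched, exactly and on both strands, were TTTCGCGC, TTTGGCGC, TTTCCCGC or TTTGCCGC for E2F, CCAAT for the CCAAT box, and TTTGAA or TTCGAA for the CHR. None of the motifs overlapped another in these windows. Capitals mark the matches in the sequences below, each written 5′ to 3′ on the strand of the gene.
RRM2, chr2:10122489-10122738, plus strand: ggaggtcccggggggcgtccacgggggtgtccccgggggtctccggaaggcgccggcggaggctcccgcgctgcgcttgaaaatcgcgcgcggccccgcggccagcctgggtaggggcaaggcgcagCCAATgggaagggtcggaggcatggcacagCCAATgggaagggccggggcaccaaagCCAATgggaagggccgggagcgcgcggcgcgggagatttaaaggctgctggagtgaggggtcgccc
TK1, chr17:78187053-78187302, minus strand: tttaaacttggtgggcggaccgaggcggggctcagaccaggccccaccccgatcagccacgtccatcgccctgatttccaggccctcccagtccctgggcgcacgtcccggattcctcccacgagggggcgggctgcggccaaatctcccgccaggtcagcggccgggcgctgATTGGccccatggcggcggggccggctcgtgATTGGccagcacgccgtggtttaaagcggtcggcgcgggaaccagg
TYMS, chr18:657403-657652, plus strand: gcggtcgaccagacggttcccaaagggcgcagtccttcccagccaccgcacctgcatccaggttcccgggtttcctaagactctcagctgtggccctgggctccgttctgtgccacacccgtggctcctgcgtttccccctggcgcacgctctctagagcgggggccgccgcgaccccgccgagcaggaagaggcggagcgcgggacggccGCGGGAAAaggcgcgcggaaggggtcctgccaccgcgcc
DUT, chr15:48331947-48332196, plus strand: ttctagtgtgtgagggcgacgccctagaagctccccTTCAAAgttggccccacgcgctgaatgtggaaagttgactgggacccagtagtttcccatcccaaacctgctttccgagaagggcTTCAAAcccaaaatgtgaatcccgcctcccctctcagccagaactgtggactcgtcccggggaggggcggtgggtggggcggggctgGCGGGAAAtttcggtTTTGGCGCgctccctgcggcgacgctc
DCTD, chr4:182917387-182917636, minus strand: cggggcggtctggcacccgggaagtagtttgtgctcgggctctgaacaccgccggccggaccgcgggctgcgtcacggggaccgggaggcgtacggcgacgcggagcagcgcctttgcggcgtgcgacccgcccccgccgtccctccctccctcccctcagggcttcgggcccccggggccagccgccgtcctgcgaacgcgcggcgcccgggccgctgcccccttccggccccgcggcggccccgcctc

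RRM2 is shown for its 3 CCAAT letters, which begin 123, 93 and 66 bases before the start, and TK1 for the same box read on the opposite strand as ATTGG, beginning 77 and 46 bases before the start. TYMS carried 1 E2F match beginning 39 bases before its start, and the DUT start shown carried 2, beginning 42 and 27 bases before it, together with 2 CHR matches written TTCAAA. DCTD is shown as a window without any match. Across the set, E2F letters were found before a start of 2 of 8 genes (TYMS and DUT), against 3.40% of 27305 genes in the same table. CCAAT was found in 4 of 8 (RRM1, RRM2, TK1 and DTYMK) against 37.0% of genes, and CHR letters in 3 of 8 (RRM1, DUT and DTYMK) against 17.2%. DCTD and DCK had no match before any start, and DUT had none before the other 3 of its 4 starts. A match is a run of letters and not a site shown to be bound, and genes with more starts had more sequence searched.

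**Figure D1:**
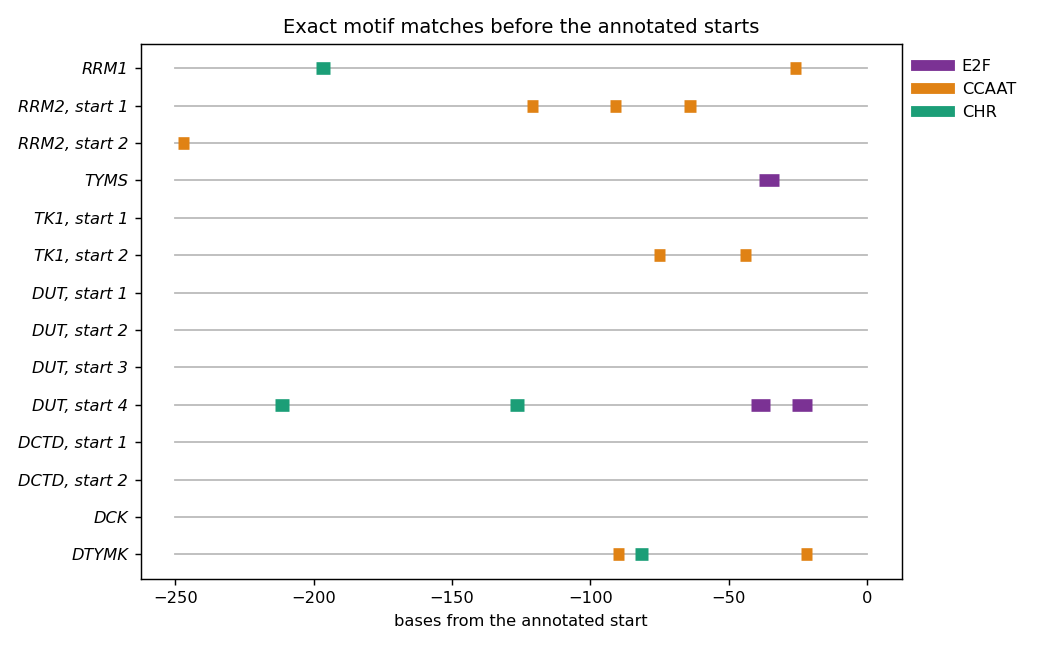
Exact matches to E2F, CCAAT and CHR letters in the 250 bases before each of the 14 annotated starts of the 8 genes, with the distance from the start on the x axis in bases and 1 line per start. The CCAAT matches lie before starts of RRM1, RRM2, TK1 and DTYMK, the E2F matches before TYMS and the last DUT start, and no match lies before DCTD or DCK.

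Signals are given as the scanner software's processed intensity, and differences as log2 of that intensity after each array was scaled to its own 75th percentile, an intensity of 784 (control), 713 (CAN) and 936 (OA). A fold of 1.5, the threshold used in the study, was taken as a call, and no test across arrays was possible with 1 array per group. The 34041 probes on all 3 arrays included 23071 to 25103 well above background per array, and no spot was saturated. Probes spotted 10 times on an array gave a median SD of 0.07 to 0.10 (log2) between spots, which measures printing and scanning and not the spread between cultures. More genes were past 1.5-fold than within it: 34.1% of 16644 genes were lower and 27.5% higher under CAN, and 28.8% of 16166 genes were lower and 28.1% higher under OA. By their file headers the arrays shared 1 scan, and array position cannot be told apart from group. KRT7, KRT8, KRT18, KRT19 and EPCAM, markers of epithelial cells, were well above background on all arrays, while CDH1 was so on the control array alone. Of the 5 leukocyte markers listed all were well above background on every array, with a summed signal of 7.98, 9.04 and 26.5 times the 75th percentile for control, CAN and OA. Their part in the results was not tested.

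Of the 8 enzymes 7 were lower under CAN, all but DCTD, and 7 were lower under OA, all but DTYMK. The share of 87.5% under each agent stands beside the 34.1% of all genes called lower under CAN and the 28.8% under OA. The set was chosen with earlier results of these data known, so this contrast only describes it. None was higher under either agent, where 27.5% and 28.1% of all genes were. RRM1, RRM2, TYMS, TK1, DUT and DCK were lower under both agents. The median difference of the 8 genes was -2.90 (log2) under CAN and -2.31 under OA, against -0.16 and 0.01 for all genes compared. Both agents were set against the same control array, so these comparisons are not independent, and in bulk RNA fewer cells in S phase cannot be told apart from less transcript per cell.

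**Figure D2:**
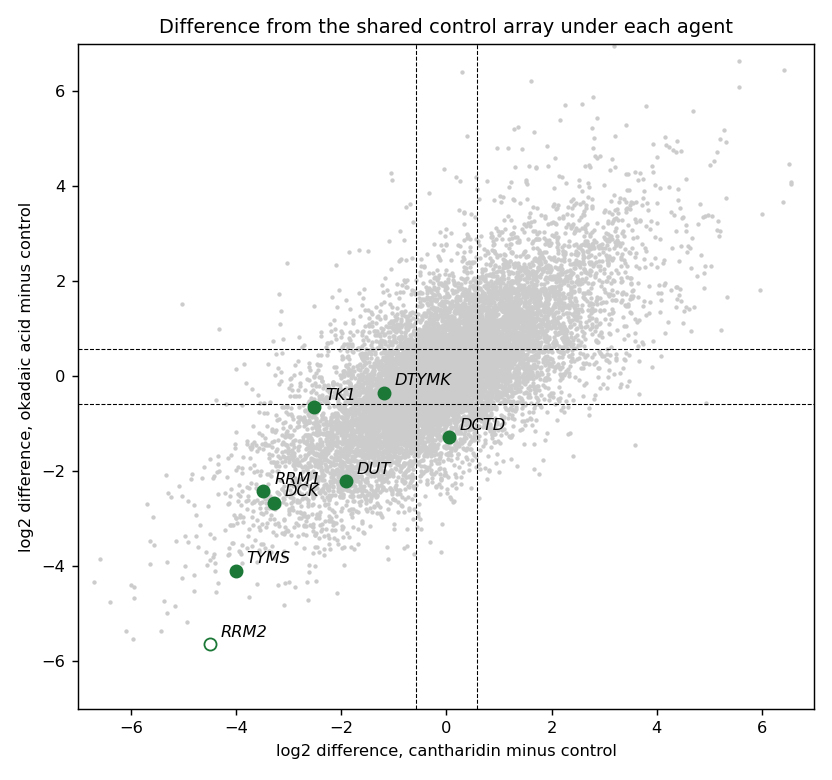
Log2 difference from the control array under CAN (x axis) and OA (y axis) for the 8 enzymes (green, RRM2 open because its OA signal was not well above background) over the genes well above background on all 3 arrays (grey), with dashed lines at 1.5-fold. The axes end at 7 in each direction. RRM2 and TYMS lie lowest, DCTD lies near 0 on the CAN axis, and TK1 and DTYMK lie nearest 0 on the OA axis.

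Ribonucleotide reductase was lower in both subunits and under both agents. RRM1, the large subunit that holds the catalytic and regulatory sites, had an intensity of 9071 on the control array, 738 under CAN and 2021 under OA. The control value stood above both treated values, and the CAN value was the lowest of the 3. RRM1 was thus 11.2-fold lower under CAN (log2 difference -3.48) and 5.36-fold lower under OA (-2.42), with an SD expected from spot noise of 0.09 and 0.07. Of the 14900 genes measured on both arrays 1.28% had a difference at least as low under CAN, and of 14428 genes 3.10% under OA.

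RRM2, the small subunit that holds the tyrosyl radical and is known to be degraded after S phase, had an intensity of 1539 in control cells, 61.6 under CAN and 36.7 under OA. The OA signal was not well above background, and it lay below the floor of that array, 58.0, the dimmest signal among probes that were. The CAN signal was well above background but was only 2.81 times the floor of its array. RRM2 was 22.7-fold lower under CAN (log2 difference -4.50), a value matched or passed by 0.329% of genes measured on both arrays. Under OA only a bound can be given, and RRM2 was at least 31.6-fold lower. The size of both differences changed with the correction. The CAN difference was -3.37 with normexp background correction and -4.91 in the deposited normalized table. The OA values there rest on the same dim signal, and were -3.83 with normexp, smaller than the bound above, and -6.45 in the deposited table, so that the bound holds for the scanner software's correction and not for normexp.

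**Figure D3:**
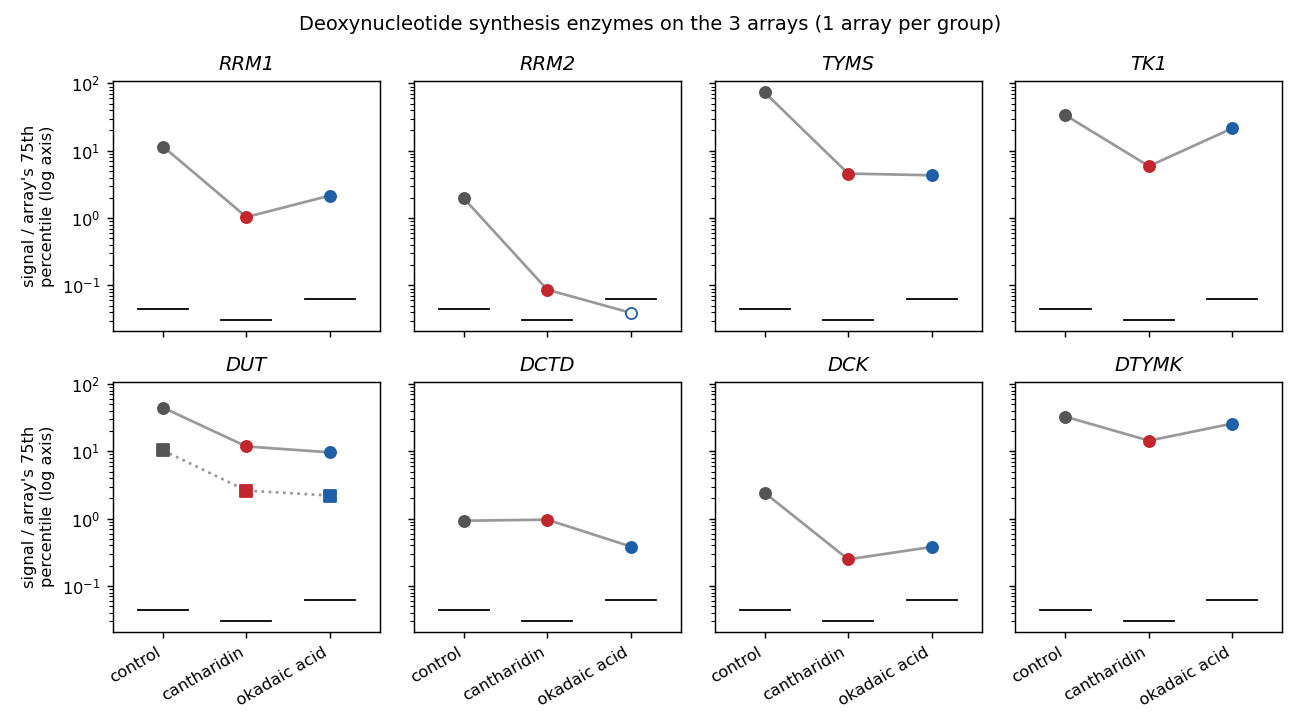
Intensity of each enzyme's probes divided by the array's 75th percentile, on a log axis, for the control, CAN and OA arrays (1 array each). Filled symbols were well above background, the open circle was not, the squares are the other DUT probe, and the black bar is the array's floor, the dimmest signal that still counted as well above background. Heights are read within a panel, since probes differ in brightness: RRM2 under OA falls below the bar, and the OA values of TK1 and DTYMK lie between control and CAN.

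TYMS and DUT, which act next to each other in thymidylate synthesis, were lower under both agents, and for each the treated arrays differed by less than 1.5-fold. TYMS had an intensity of 57671 on the control array, 3268 under CAN and 4047 under OA. Both treated values were far below control, and they differed little from each other. TYMS was 16.0-fold lower under CAN (log2 difference -4.00) and 17.0-fold lower under OA (-4.09). Among genes measured on both arrays, 0.611% had a difference at least as low under CAN and 0.215% under OA, where TYMS was in place 31 of 14428.

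DUT, which supplies dUMP and removes dUTP, had an intensity of 34955, 8421 and 9045 on the brighter probe for control, CAN and OA, and of 8098, 1861 and 2067 on the other probe. The probes gave nearly the same differences, although their brightness differed. On the brighter probe DUT was 3.77-fold lower under CAN (log2 difference -1.92) and 4.61-fold lower under OA (-2.21). The other probe gave 3.95-fold (-1.98) and 4.68-fold (-2.22). Both probes carry the same accession.

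DCTD, the other source of dUMP, did not follow this pattern. Its intensity was 731 in control cells, 688 under CAN and 361 under OA. The control and CAN values were nearly equal, and the OA value was the lowest. The CAN difference of 0.05 (log2, 1.04-fold) was below the SD of 0.09 expected from spot noise, and over 10 alternative settings it ran from -0.09 to 0.12. Under OA DCTD was 2.42-fold lower (-1.27). It was alone among the 8 in that it was lower under OA and not under CAN.

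The salvage kinases separated from each other under OA. TK1, which phosphorylates thymidine in the cytosol of dividing cells, had an intensity of 26430 on the control array, 4209 under CAN and 20204 under OA. The OA value lay nearer to control than to the CAN value, which was far below both. TK1 was 5.71-fold lower under CAN (log2 difference -2.51) and 1.56-fold lower under OA (-0.64). The latter just passed 1.5-fold, and over 10 alternative settings it ran from -0.76 to -0.39. It passed in 6 of these, but some of the 6 could not change it. Where the value changed, it passed only with normexp correction (-0.65) and median scaling (-0.76), and fell short in the rest. Relative to the median of all genes it was -0.65, and -0.65 to -0.53 over the scalings and corrections tried. The median of 8 reference genes under OA, given below, was -0.65, about the same as the TK1 difference.

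DCK, the rate-limiting kinase for deoxycytidine and its drug analogs, had an intensity of 1902 in control cells, 177 under CAN and 356 under OA. Both treated values were well under control. DCK was 9.74-fold lower under CAN (log2 difference -3.28) and 6.39-fold lower under OA (-2.68), and 1.64% and 2.12% of genes measured on both arrays had differences at least as low. Normexp correction reduced the differences to -2.71 and -2.29, and DCK remained past 1.5-fold for each agent in every alternative that could change it.

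DTYMK, the thymidylate kinase that the synthase and salvage routes share, had an intensity of 25659 in control cells, 10270 under CAN and 24179 under OA. The OA value again lay near control. DTYMK was 2.27-fold lower under CAN (log2 difference -1.18), the smallest of the 7 called differences. Under OA the difference was -0.34 (1.27-fold), larger than the SD of 0.07 expected from spot noise but short of 1.5-fold. It stayed short in every alternative that could change it (-0.46 to -0.09).

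Set directly against each other, the agents left different amounts of several of these transcripts. On the OA array 4 of 8 were higher than on the CAN array, where 29.5% of 16200 genes were, and 2 of 8 were lower, where 22.3% were. TK1 was 3.65-fold higher (log2 difference 1.87), and 95.4% of the 14604 genes measured on both arrays lay at or below that value. RRM1 was 2.08-fold higher (1.06), DTYMK 1.79-fold higher (0.84) and DCK 1.53-fold higher (0.61). The DCK difference passed 1.5-fold in 6 of 10 alternatives, but some of these 6 could not change it. It fell short with normexp correction (0.42), median scaling (0.46), quantile normalization (0.49) and the deposited table (0.58). Where the DCK value changed, it passed only with no scaling and with scaling to the 75th percentile of detected probes (0.62). The differences of TK1, RRM1 and DTYMK passed 1.5-fold in every alternative that could change them. DCTD was 2.50-fold lower under OA than under CAN (-1.32). RRM2 was at least 1.39-fold lower by its bound, which does not reach 1.5-fold, although the measured difference of -1.14 did. TYMS (-0.09) and DUT (-0.29) were within 1.5-fold, and with no scaling between arrays each changed sign, to 0.31 and 0.10. The median of all genes differed by 0.13 between these arrays and by -0.02 to 0.52 over the scalings and corrections tried.

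**Figure D4:**
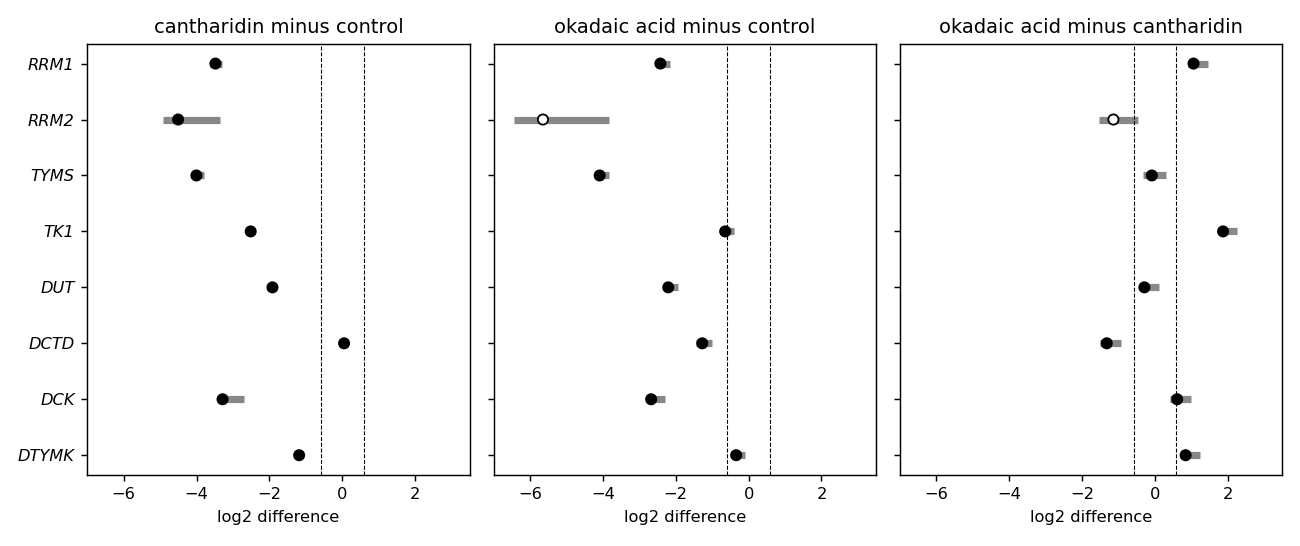
Log2 difference of each enzyme in the main setting (circles, open where RRM2 rests on a signal not well above background) and the range over the alternative settings (grey bars), for each agent against control and for OA against CAN. Dashed lines mark 1.5-fold. The bars are widest for RRM2, and the bar of TK1 under OA crosses the line.

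The rest of nucleotide metabolism was read from 7 lists of genes. Of 65 such genes, 64 could be compared. Under CAN 38 (59.4%) were lower and 5 (7.81%) higher, where 34.1% and 27.5% of all genes were. Under OA 38 were lower and 7 (10.9%) higher, where 28.8% and 28.1% of all genes were. Their median differences were -1.13 and -0.93. OA against CAN gave 12 lower (19.4%) and 19 higher (30.6%) of 62, close to the 22.3% and 29.5% of all genes.

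The genes that work with ribonucleotide reductase were few, so their shares are given beside those of all genes and not read further. Of 5 partner genes 1 (20%) was lower and 1 (20%) higher under CAN, where 34.1% and 27.5% of all genes were. Under OA none was lower and 3 (60%) were higher, where 28.8% and 28.1% of all genes were. The medians were -0.18 and 1.03. RRM2B, the p53-inducible small subunit that serves resting cells, had an intensity of 229 in control cells, 183 under CAN and 632 under OA. Its level was therefore close to control under CAN (log2 difference -0.18) and 2.31-fold higher under OA (1.21), although its dimmer probe gave only 0.22 there. GLRX, a glutaredoxin that can return electrons to the reductase, read 7520, 1543 and 20522. It was 4.43-fold lower under CAN (-2.15) and 2.29-fold higher under OA (1.19). GSR, glutathione reductase, was higher under both on its brighter probe (1.20 and 1.03), but its other probe gave 0.91 under CAN and only 0.22 under OA. The values of TXN (-0.35 and 0.14) and TXNRD1 (0.45 and 0.00), the thioredoxin arm, were within 1.5-fold.

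Folate enzymes supply the methyl group for TYMS. Of 9 folate genes 5 (55.6%) were lower under CAN and 7 (77.8%) under OA, where 34.1% and 28.8% of all genes were. The medians were -1.73 and -1.38. The cytosolic enzymes SHMT1 and MTHFD1 were lower under both agents. SHMT1, which makes serine-derived 1-carbon units, read 1222, 33.8 and 76.4, that is 32.8-fold and 19.1-fold lower (log2 differences -5.04 and -4.26). Its treated signals lay near the floors of their arrays, 21.9 (CAN) and 58.0 (OA), so the size of these folds is uncertain. The other SHMT1 probe gave -3.84 and -4.02, with a signal not well above background on either treated array. MTHFD1 differed by -3.23 and -2.00. The mitochondrial enzymes differed between the agents. SHMT2 was within 1.5-fold under CAN (0.45) and lower under OA (-1.38), and MTHFD2 was higher under CAN (1.18) and near control under OA (-0.21). SLC19A1, the reduced folate carrier, was lower under both (-2.99 and -2.29), by less on its other probe (-1.82 and -1.70).

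A list of enzymes of deoxynucleotide turnover held hydrolases, nucleotidases, deaminases and phosphorylases and also the mitochondrial salvage kinases TK2 and DGUOK. Of 11 genes 6 (54.5%) were lower and 1 (9.09%) higher under CAN, where 34.1% and 27.5% of all genes were. Under OA 7 (63.6%) were lower and 2 (18.2%) higher, where 28.8% and 28.1% of all genes were. The medians were -1.13 and -1.36. SAMHD1, which hydrolyses dNTPs and is high in resting cells, was near control under both on its brighter probe (-0.08 and 0.13), while its other probe gave -0.80 and -0.69. TK2, the mitochondrial thymidine kinase, read 304, 20.9 and 74.0 and was not well above background on either treated array, so that it was at least 12.6-fold lower under CAN and at least 4.90-fold lower under OA. DGUOK, the mitochondrial deoxyguanosine kinase, was within 1.5-fold under CAN (-0.36) and lower under OA (-1.50). The mitochondrial nucleotidase NT5M (-3.31 and -3.56), the dCTP-cleaving DCTPP1 (-2.57 and -2.46) and NUDT1, which removes oxidised dNTPs (-2.81 and -1.36), were lower under both. PNP, the purine nucleoside phosphorylase, was higher under both (1.93 and 1.74).

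The routes that feed ribonucleotides to the reductase came next. All but UMPS of 5 pyrimidine synthesis genes, that is 4 (80%), were lower under each agent (medians -2.46 and -1.21). Of all genes 34.1% were lower under CAN and 28.8% under OA, and 27.5% and 28.1% were higher. CAD, which catalyses the opening steps of the route, differed by -2.63 and -2.61. Of 14 purine genes 10 (71.4%) were lower under CAN and 12 (85.7%) under OA, with none higher (medians -0.91 and -1.17). PFAS (-1.96 and -2.54), PAICS (-2.02 and -1.50) and ATIC (-1.36 and -2.06) were lower under both. Nucleotide kinases gave 9 lower (60%) and 2 higher (13.3%) of 15 under CAN, and 7 lower (46.7%) and 1 higher (6.67%) under OA (medians -1.12 and -0.47). SLC29A1, the main equilibrative nucleoside carrier, read 63212, 4737 and 5010, which made it 12.1-fold and 15.1-fold lower. The 5 carriers had medians of -1.72 and -0.41, or -1.20 and -0.19 with dim genes set at their bounds. Over the carriers well above background on all 3 arrays the medians were -0.38 and 0.02, and with normexp correction -0.41 and -0.23, so neither the size under CAN nor the sign under OA held.

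**Figure D5:**
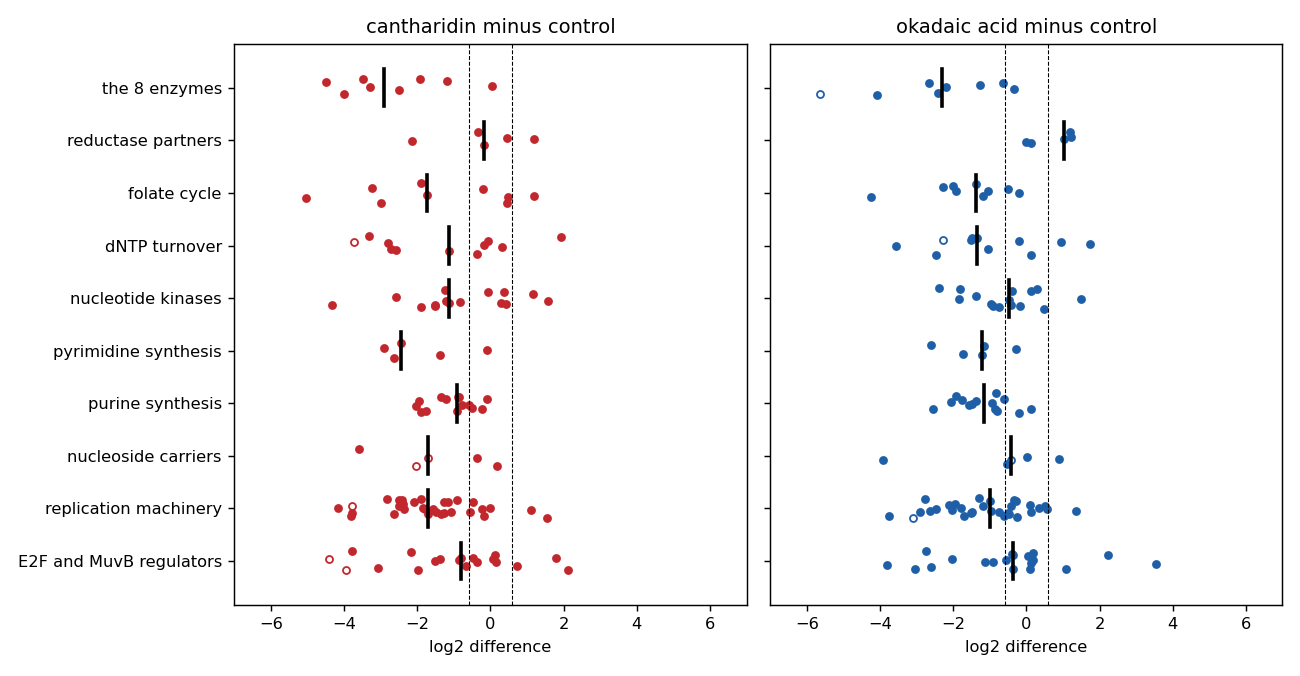
Log2 difference from control of each gene in the 8 enzymes and in 9 lists of related genes, under CAN (left) and OA (right). Points are genes, open where a signal was not well above background on the control or the treated array, black bars are medians, and dashed lines mark 1.5-fold. Among the lists drawn the median of the 8 enzymes lies lowest in each panel, and that of the reductase partners lies nearest 0 under CAN and above 0 under OA. The G2/M genes, whose medians were lower still (-3.80 and -3.26), are not drawn.

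Replication genes, which are used in the same phase of the cycle, were compared as a further group. Of 31 genes 24 (77.4%) were lower under CAN and 19 (61.3%) under OA, where 34.1% and 28.8% of all genes were. The medians were -1.70 and -0.98. OA against CAN gave 14 higher (46.7%) and 2 lower (6.67%) of 30, where 29.5% and 22.3% of all genes were. The median was 0.54, where the 8 enzymes had 0.26. PCNA, the sliding clamp, read 16393, 4595 and 29030. It was lower under CAN (-1.70), while under OA it was 1.48-fold above control (0.57), within 1.5-fold. GINS1 (-4.16 and -3.76) and PRIM1 (-3.79 and -2.78) were lower under both.

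Regulators of the S phase transcripts were read beside them. E2F1, an activator of this gene group, read 658 in control cells, 28.1 under CAN (not well above background) and 118 under OA, and was at least 21.3-fold and 6.66-fold lower. E2F2 (-3.78 and -2.60) and FOXM1 (-3.08 and -3.80) were lower under both, whereas LIN37, a subunit of the MuvB core, was higher under both (2.11 and 3.55). In all, 11 of 19 E2F and MuvB genes (57.9%) were lower under CAN and 7 (36.8%) under OA, where 34.1% and 28.8% of all genes were. The OA share was thus near that of all genes. Under each agent 3 (15.8%) were higher, where 27.5% and 28.1% of all genes were. CCNF, the F-box protein that targets RRM2 for degradation, read 51.8 in control cells, 37.8 under CAN and 83.1 under OA. Each signal was well above background but lay near the floor of its array, for the treated arrays 21.9 (CAN) and 58.0 (OA). The CCNF differences were within 1.5-fold under both (-0.32 and 0.43), but with signals this dim their size is uncertain. FZR1, an activator of the complex that removes TK1 protein after mitosis, was 1.62-fold lower under CAN (-0.70) and within 1.5-fold under OA (-0.40). Of 10 G2/M genes listed as markers of dividing cells, 9 (90%) were lower under CAN and 8 (80%) under OA (medians -3.80 and -3.26). The part of cell cycle position in the results for the 8 enzymes was not tested. Among 8 reference genes 3 (37.5%) were lower under CAN and 5 (62.5%) under OA, and 1 (12.5%) was higher under each (medians -0.37 and -0.65). These shares stand beside the same shares of all genes.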

How the data were processed

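Total RNA of 3 PANC-1 cultures was hybridised to Agilent 1-colour arrays. For each array the authors deposited scanner output, in which spot intensity came from Feature Extraction 11.0.1.1 (submitters' processing notes and file headers). Per the file headers, the processed intensity was background-subtracted and detrended per array but not scaled across arrays, and deposited flags gave control, outlier, saturated and well-above-background spots. A series table of normalized log2 values was deposited too; its method is not given in the sources used here, and it was used as an alternative only. Over 30845 probes each of its columns tracked its own array most closely (across probes, r of 0.998 to 0.999), and the column medians were 7.74 (control and cantharidin) and 7.75 (okadaic acid), so they were taken as log2 levels with no centring per gene.

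Control and outlier spots were left out, log2 processed intensity was averaged over the spots of a probe, and each array's 75th percentile was subtracted. Accessions were matched without version to RefSeq (GRCh38.p14), which named 25705 probes. The probe annotation of the arrays used hg19, so names only were taken from this match. For each gene the probe with the highest mean log2 signal was taken. Comparison required a signal well above background on either array, and calls were made at 1.5-fold. Where the other array fell short, "at least" marks a fold taken against the dim signal or the array's floor (its dimmest signal well above background), whichever was higher. Ranks used genes measured on both arrays. Precision is limited by the number of arrays.

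The members and gene lists were chosen with earlier results of these data known. Named genes were the 8 enzymes, a short set of known partners and regulators (RRM2B, SAMHD1, TK2, DGUOK, CCNF, FZR1, E2F1 and PCNA), up to 5 genes of each other list past 1.5-fold in the same direction under both agents, any in opposite directions, and the 5 genes nearest to the median of the 8 enzymes. SHMT2, MTHFD2, TXN, TXNRD1, UMPS and the keratins were named after their values were seen. ENOSF1, the neighbour of TYMS, matched no probe and is not analysed here. The values of 1 listed gene are not reported here. No test, p-value or set test was computed. The alternatives were no scaling, scaling to the median or to the 75th percentile of detected probes, quantile normalization, normexp correction (offset 50), no filter on dim probes, a filter on all 3 arrays, dim signals at the array floor, the deposited log2 table, the median over probes and a 2-fold threshold. The calling step was tested on simulated data. Software was Python 3.11.15 (pandas 2.3.3, numpy 2.4.6, matplotlib 3.10.9) and, for normexp and quantile steps, limma 3.58.1 in R 4.3.3.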

Additional observations from a re-analysis of the deposited data

Results flagged for a closer look

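GLRX, the glutaredoxin gene listed as a partner of ribonucleotide reductase, was past 1.5-fold in opposite directions under the agents, with a log2 difference of -2.15 under cantharidin and 1.19 under okadaic acid. Its intensity read 7520 (control), 1543 (cantharidin) and 20522 (okadaic acid). With 1 array per group the difference was not tested.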

How the results depend on the processing

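No called difference of the 8 enzymes changed direction under the alternatives that gave it a value, and other single genes were not recomputed. The 8 enzymes gave 6 to 7 lower under cantharidin and 6 to 7 under okadaic acid, the count of 6 under cantharidin arising where the filter on all 3 arrays left RRM2 out. TK1 under okadaic acid fell short of 1.5-fold with scaling to the 75th percentile of detected probes (-0.57), quantile normalization (-0.56), no scaling (-0.39) and the deposited table (-0.57). The median of the 8 enzymes under cantharidin, -2.90, became -2.58 with normexp correction, -3.04 with no scaling and -2.51 with the filter on all 3 arrays. That under okadaic acid, -2.31, became -2.43 with median scaling and -2.06 with no scaling. At a 2-fold threshold 2 in place of 4 enzymes were higher under okadaic acid than under cantharidin. Of the 65 other nucleotide genes, 33 to 40 were lower under cantharidin and 30 to 41 under okadaic acid. With the 50 bases after each start included, DCK joined TYMS and DUT, so that 3 in place of 2 enzymes held E2F letters. No paired analysis was possible because each group had 1 array. Causes of these shifts were not tested. Signal over background limited RRM2, whose okadaic acid value is only a bound. No replicate culture was measured, so none of these values carries a biological error.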

Other observations

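Over the 14222 genes measured on all 3 arrays, the genes whose pair of differences lay nearest to the median of the 8 enzymes (-2.90 under cantharidin and -2.31 under okadaic acid, by straight-line distance on the log2 scale) were XYLT2 at 0.023, KIAA1549 at 0.059, FUNDC1 at 0.061, SLC19A1 at 0.093 and UHRF1 at 0.110, each by its brightest probe. The other SLC19A1 probe gave -1.82 and -1.70. XYLT2, a xylosyltransferase of proteoglycan synthesis, differed by -2.92 and -2.31, and UHRF1, a factor of maintenance DNA methylation, by -2.97 and -2.40. Likeness over 3 arrays describes these arrays only.

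Nucleoside diphosphate kinases, which add the last phosphate to dNTPs, included NME3 at -4.34 under cantharidin and -1.85 under okadaic acid and NME4, a mitochondrial member, at -2.59 and -2.39. AK1, an adenylate kinase, was 2.22-fold and 2.84-fold higher. WEE1, the kinase that restrains CDK1, read 3838 in control cells, 1458 under cantharidin and 7272 under okadaic acid, with log2 differences of -1.26 and 0.67 in opposite directions, a contrast that was not tested. CDC20, an activator of the anaphase-promoting complex, was lower under both (-1.94 and -0.79).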
